A study of Drosophila melanogaster with 6 samples.

Results

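Gene deserts are stretches of the genome that lie far from any annotated gene. Here they are the bases of the dm6 chromosome arms 2L, 2R, 3L, 3R, 4 and X that lie more than 5 kb from every RefSeq gene span, and a desert peak is a peak whose whole length, start to end, lies in them. Of 92031 peaks on these 6 arms, summed over 4 peak lists, 11514 (12.5%) were desert peaks. They were set against 56731 gene peaks (61.6%), which lie wholly inside a gene span. All sequences together held 95996 peaks.

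The lists come from targeted DamID of Simba2 and Simba1, a pair of Drosophila microproteins, in larval brains. In DamID a protein is fused to the bacterial adenine methylase Dam, which methylates GATC sites near the places the protein reaches, and the methylated DNA is cut out with DpnI, amplified and sequenced. The 6 samples were UAS-Dam-Simba2, UAS-Dam-Simba1 and, for control, UAS-Dam, with 1 sample of each in each of 2 batches. All 3 transgenes were driven by grh-Gal4 with tub-Gal80ts: embryos of a 4 h window stayed at 18 °C for 44 h and then spent 24 h at 29 °C, where the heat-sensitive Gal80 no longer blocks Gal4, before the brains were dissected.

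The labels call the cells neural stem cells, which is the type in which the driver is said to act. Peak positions hold no measure of cell identity, so that label could not be checked against markers. DNA came from brains, so a desert methylated in more cells and a desert methylated more often in each cell cannot be told apart. Cells that do not express the driver still add unmethylated DNA. The labels do not say whether the batches came from separate parents or how many brains were pooled, so the spread between them may be partly technical.

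The control of each fusion list was the Dam sample from the same batch, so the 2 lists of a batch share it. The fusion libraries held 1069703 (Simba2 batch 1), 1267661 (Simba2 batch 2), 1191497 (Simba1 batch 1) and 1506081 tags (Simba1 batch 2) after filtering, against 868080 and 1321104 tags in the Dam controls of batches 1 and 2. Every peak had been kept whatever its q-value (the false discovery rate computed by the peak caller), so weak peaks are among those counted. Simba1 batch 2 stood apart from the other libraries in several desert measures, so the results on peak share, density, coverage and q are also given without it, and sharing is given for each pair of libraries.

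In flies the arms are gene-dense along most of their length, and genes thin out toward the centromeres, where the sequence passes into repeat-rich heterochromatin. Deserts are therefore of at least a pair of kinds: gaps between genes in euchromatin, which can hold distant enhancers of developmental genes, and the long gene-poor tracts beside the centromere. Dam alone methylates open chromatin more readily than closed chromatin, which is why a fusion is read against a Dam control.

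The 6 arms held 992 deserts with 17.2 Mb in all, 12.9% of the arms, while the spans of 17673 genes covered 92.9 Mb (69.4%). The median desert was 7.58 kb long and the longest 701 kb. The pericentromeric ends of the arms (approximate, set at round positions) held 141 deserts with 8.44 Mb, which is 44.0% of those ends. The rest of the arms held 851 deserts with 8.79 Mb, which is 7.67% of that sequence. About equal lengths of desert thus came from each zone, but the pericentromeric deserts were longer (median 27.2 kb, against 6.57 kb in the rest), and they include 49 of the 65 deserts of 50 kb or more.

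Desert peaks took a slightly smaller share of the list than desert sequence takes of the arms in 3 libraries, and a larger share in Simba1 batch 2. Simba2 batch 1 had 2556 desert peaks of 21727 (11.8%, 95% exact Clopper-Pearson interval 11.3 to 12.2%) and Simba2 batch 2 had 3910 of 33465 (11.7%, 11.3 to 12%). Simba1 batch 1 had 1935 of 16837 (11.5%, 11 to 12%) and Simba1 batch 2 had 3113 of 20002 (15.6%, 15.1 to 16.1%). The first 3 shares lie close together with overlapping intervals, and the share of Simba1 batch 2 lies above all of them. These intervals cover counting error only.

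The share averaged 11.7 ± 0.0568% in Simba2 and 13.5 ± 2.88% in Simba1 (SD, n = 2 each), a difference of -1.80 points (exact two-sided permutation p = 1; 0.33 is the smallest p that 2 libraries against 2 allow). The proteins were therefore not separated by their share of desert peaks. Within batch 1 the difference, Simba2 minus Simba1, was 0.272 points, and within batch 2 it was -3.88 points. Without Simba1 batch 2 it was 0.231 points, so the negative mean rests on that library.

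Peak density in deserts was close to that in gene spans in 3 of the 4 libraries. Simba2 batch 1 had 148 desert peaks per Mb of desert and 145 gene peaks per Mb of gene span, and Simba2 batch 2 had 227 in both. Simba1 batch 1 had 112 in deserts and 109 in gene spans. Simba1 batch 2 alone had clearly more in deserts, with 181 per Mb in deserts and 130 in gene spans. The desert over gene ratios were 1.02, 1.00, 1.03 and 1.39 in this order. Their geometric mean was 1.10 ± 0.189 (SD of the plain ratios, n = 4 libraries, exact two-sided sign permutation p = 0.25). The smallest p that 4 libraries allow is 0.13. Here and below, means of ratios over the 4 libraries are geometric, and the SD beside each is of the plain ratios. Without Simba1 batch 2 the mean log2 ratio of density was 0.025, against 0.14 with it. The ratio also depends on what is called a gene peak: counting every peak that shares at least 1 bp with a gene span turned the mean log2 ratio to -0.080.

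**Figure D1:**
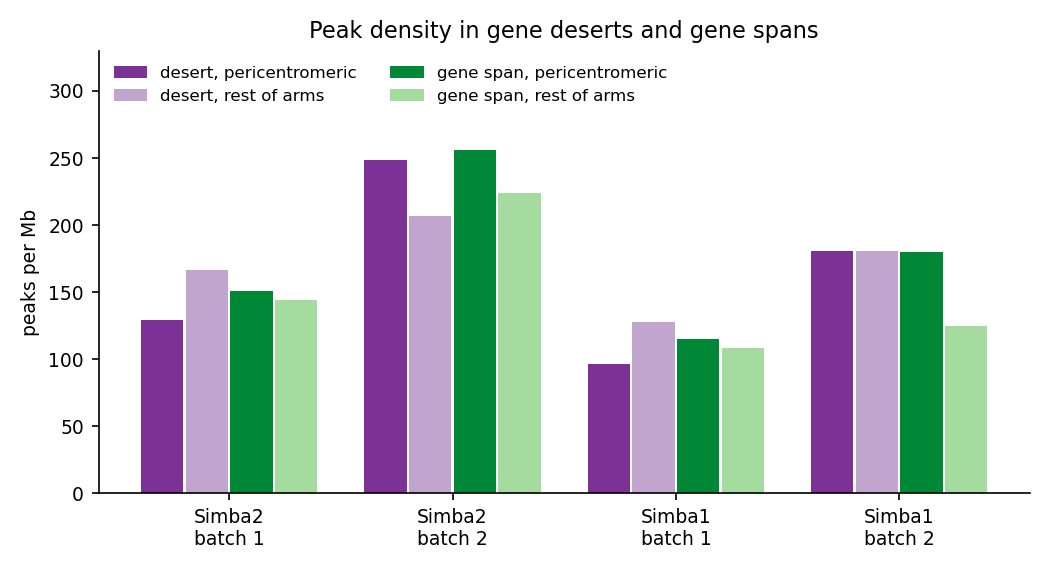
Peaks per Mb of sequence (y axis) in the 4 libraries (x axis), for deserts (purple) and gene spans (green), each split into pericentromeric ends (dark) and the rest of the arms (light). In Simba1 batch 2 the bar for gene spans in the rest of the arms is the low one, and its desert bars match its pericentromeric gene bar.

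The plot of peak density by zone splits these values. In pericentromeric deserts the density was 129 peaks per Mb in Simba2 batch 1, 248 in Simba2 batch 2, 96.6 in Simba1 batch 1 and 181 in Simba1 batch 2. In the deserts of the rest of the arms it was 167, 206, 127 and 181 in the same order. Both batch 1 libraries thus had fewer peaks per Mb in the pericentromeric deserts than in the other deserts, Simba2 batch 2 had more, and Simba1 batch 2 had the same. In Simba1 batch 2, gene spans of the rest of the arms held 124 peaks per Mb and pericentromeric gene spans 180, so the gene spans of the rest of the arms are where this library was low beside its own desert values. The desert over gene ratio for that library was 1.45 in the rest of the arms and 1.00 in the pericentromeric ends. Because pericentromeric deserts make up so much of all desert sequence, 42.7% (Simba2 batch 1), 53.6% (Simba2 batch 2), 42.1% (Simba1 batch 1) and 49.0% (Simba1 batch 2) of desert peaks were pericentromeric, against 9.81, 10.6, 9.93 and 13.1% of gene peaks.

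The arms differed in how much desert they held and little in the desert over gene density. Arms 3L and 2R had the most desert, 4.99 and 4.04 Mb, and 3R had 3.11, 2L 2.53 and X 2.47 Mb. In Simba2 batch 1, Simba2 batch 2 and Simba1 batch 1 the density ratio on these 5 arms stayed between 0.903 (3R, Simba2 batch 2) and 1.15 (X, Simba2 batch 1). In Simba1 batch 2 it was above 1 on each of the 5, from 1.27 on 3R to 1.62 on X. Chromosome 4, a small and largely heterochromatic chromosome, had 5 deserts of 0.0898 Mb in all, with 17, 35, 15 and 12 desert peaks in Simba2 batch 1, Simba2 batch 2, Simba1 batch 1 and Simba1 batch 2, too few for a ratio to be read.

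Distance from genes was then followed beyond the limit that defines a desert. The median desert peak lay 12.3 kb (Simba2 batch 1), 15.6 kb (Simba2 batch 2), 12.2 kb (Simba1 batch 1) or 14.1 kb (Simba1 batch 2) from the nearest gene, and the farthest lay 566 kb away, in Simba2 batch 2. Peaks more than 100 kb from any gene numbered 216 in Simba2 batch 1, 437 in Simba2 batch 2, 163 in Simba1 batch 1 and 311 in Simba1 batch 2. Peaks just inside the limit, 5 to 6 kb from a gene, had a median fold enrichment of 2.91, 2.39, 3.04 and 2.67 in these libraries, and those just outside it, 4 to 5 kb from a gene, had 2.93, 2.40, 2.89 and 2.69. The limit does not mark a step in these values.

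**Figure D2:**
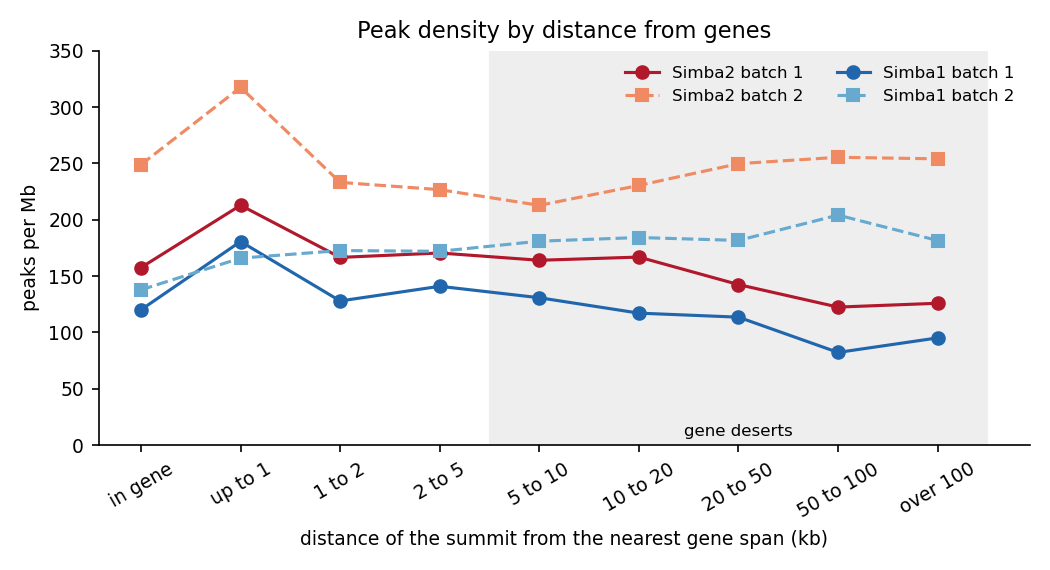
Peaks per Mb (y axis) by distance of the peak summit from the nearest gene span in kb (x axis, classes of unequal width), with 1 line for each library and the desert classes shaded. In Simba2 batch 1, Simba2 batch 2 and Simba1 batch 1 the highest point is within 1 kb of a gene; inside the shaded part the batch 1 lines end lower than they began and the Simba2 batch 2 line ends higher.

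Peak density was highest within 1 kb of a gene in 3 of the 4 libraries, as the plot of density by distance shows: 213 per Mb in Simba2 batch 1, 317 in Simba2 batch 2 and 181 in Simba1 batch 1, counted by summit. In Simba1 batch 2 it was 166 there and reached 204 at 50 to 100 kb. From the near edge of the deserts (5 to 10 kb) to their interior (over 100 kb) the batches parted. At over 100 kb Simba2 batch 1 had 126 peaks per Mb, against 164 at 5 to 10 kb, and Simba1 batch 1 had 95.1, against 131. Simba2 batch 2 had 254 at over 100 kb, against 213 at 5 to 10 kb, and Simba1 batch 2 had 182, against 181. The batch 1 libraries were thus lower deep in the deserts by ratios of 0.767 and 0.727, and the batch 2 libraries were higher or level, by 1.19 and 1.00.

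The class over 100 kb rests on few bases, 1.72 Mb in all. The summit coverage of its peaks was lower than at the edge of the deserts in every library. The median pileup (reads covering the summit, scaled to the smaller library of the fusion and control pair) was 4.87 at over 100 kb against 7.30 at 5 to 10 kb in Simba2 batch 1, 5 against 9 in Simba2 batch 2, 5.83 against 7.29 in Simba1 batch 1, and 7.02 against 8.77 in Simba1 batch 2.

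Desert peaks were close to gene peaks in length and fold enrichment and lower in coverage. Their median length was 402, 400, 402 and 377 bp in Simba2 batch 1, Simba2 batch 2, Simba1 batch 1 and Simba1 batch 2, against 414, 413, 421 and 379 bp for gene peaks. Desert peaks were shorter in all 4 libraries, by 11.5 ± 7.05 bp on average (difference of medians desert minus gene, -11.5 bp, SD, n = 4; exact two-sided sign permutation p = 0.13, the smallest that 4 libraries allow). The difference was -7.75 bp within the pericentromeric ends and 2.50 bp in the rest of the arms, and among peaks with q of 0.05 or lower it was 6.38 bp, so its sign is not stable.

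Coverage at the summit was lower at desert peaks. The median pileup of desert peaks was 6.49, 7, 6.56 and 7.89 in Simba2 batch 1, Simba2 batch 2, Simba1 batch 1 and Simba1 batch 2, against 8.93, 10, 8.74 and 8.77 for gene peaks. The ratios were 0.727, 0.700, 0.751 and 0.900 (mean 0.766 ± 0.0894, SD, n = 4; exact two-sided sign permutation p = 0.13, the smallest possible). Without Simba1 batch 2, whose ratio was the nearest to 1, the arithmetic mean was 0.726 ± 0.0253 (SD, n = 3). In whole reads the median desert peak had 8, 7, 9 and 9 reads at its summit and the median gene peak 11, 10, 12 and 10.

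Over whole arms, the background from the Dam control at desert peaks was lower by more than the pileup was. Its median at desert peaks, recovered from pileup and fold enrichment, was 1.39, 2.03, 1.33 and 2.15 scaled reads in the same order of libraries, against 2.23, 3.29, 2.19 and 2.72 at gene peaks. The ratios were 0.625, 0.618, 0.608 and 0.790 (geometric mean 0.656 ± 0.0866, SD of the plain ratios, n = 4, exact two-sided sign permutation p = 0.13). Without Simba1 batch 2 the arithmetic mean was 0.617 ± 0.00874 (SD, n = 3). In the rest of the arms the background ratios were 0.768, 0.785, 0.839 and 0.849. Within the pericentromeric ends they were 0.845, 0.845, 0.902 and 1.01. There the background was not lower in Simba1 batch 2, and in Simba1 batch 1 the pileup ratio, 0.889, was the lower of the pair. Fold enrichment is the pileup plus 1 over the background plus 1. Its median was 2.80, 2.39, 3.00 and 2.75 at desert peaks and 2.77, 2.44, 2.93 and 2.66 at gene peaks, with ratios of 1.01, 0.982, 1.03 and 1.03 (mean 1.01 ± 0.0227, SD, n = 4; exact two-sided sign permutation p = 0.375). Within the pericentromeric ends the ratio of fold enrichment averaged 0.990, with no library above 1 and 3 below it, and in the rest of the arms it averaged 1.02, with 3 above 1 and 1 below it. Over whole arms, fusion and Dam signal were lower together at desert peaks. GATC sites and the mappability of desert sequence were not analysed here.

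**Figure D3:**
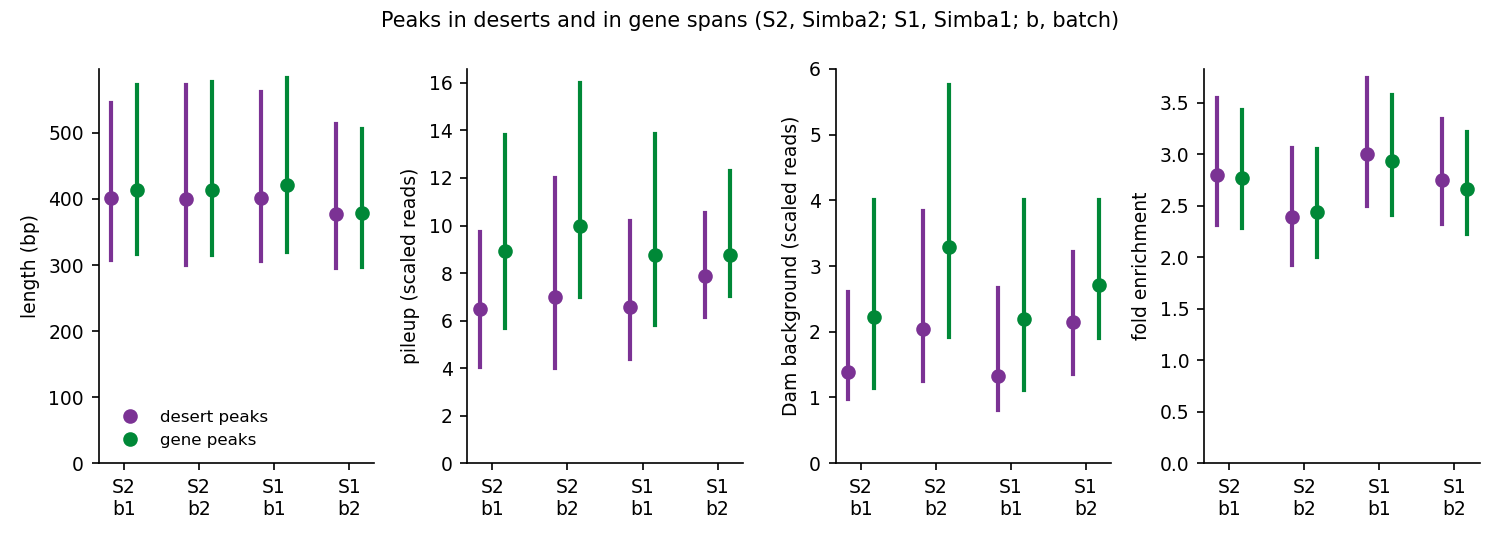
Length in bp, pileup in scaled reads, Dam background in scaled reads and fold enrichment (y axes, each from 0) for desert peaks (purple) and gene peaks (green) in the 4 libraries (x axis; S2 and S1 are Simba2 and Simba1, b1 and b2 the batches). Points are medians and bars run from the lower to the upper quartile; pileup and background sit lower in deserts while length and fold enrichment nearly coincide.

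The plot of the 4 peak measures shows that the quartiles of desert and gene peaks overlapped widely in all of them. The pileup difference depended on the zone. Within the pericentromeric ends the ratio of median pileup, desert over gene, was 1.00 in Simba2 batch 1, 1.00 in Simba2 batch 2, 0.889 in Simba1 batch 1 and 1.00 in Simba1 batch 2. In the rest of the arms it was 0.817, 0.818, 0.846 and 0.909, below 1 in all 4 libraries (mean 0.847 ± 0.0429, SD, n = 4; exact two-sided sign permutation p = 0.13). Pericentromeric peaks had low pileup inside genes as well: in Simba2 batch 2 the median was 6 reads for pericentromeric desert peaks and 6 for pericentromeric gene peaks, and 9 and 11 in the rest of the arms.

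Thinly covered peaks were more common in deserts. Peaks with 3 or fewer reads at the summit made up 7.71% of desert peaks in Simba2 batch 1, 16.1% in Simba2 batch 2, 6.25% in Simba1 batch 1 and 1.73% in Simba1 batch 2, against 3.5, 5.46, 2.54 and 0.532% of gene peaks. In all 4 libraries the desert share was the higher one (mean difference 4.95 points; exact two-sided sign permutation p = 0.13), and without Simba1 batch 2 the mean difference was 6.19 points. The difference was smaller within zones: it averaged 1.31 points in the pericentromeric ends, where Simba2 batch 1 went the other way, and 1.99 points in the rest of the arms. In Simba2 batch 2, 24.5% of pericentromeric desert peaks and 22.1% of pericentromeric gene peaks had 3 or fewer reads, against 6.44% of desert peaks and 3.49% of gene peaks in the rest of the arms. Thin coverage in that library thus went mainly with the pericentromeric zone. 

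The share of desert peaks with q of 0.05 or lower was 46.9% in Simba2 batch 1, where 52.7% of gene peaks and 53.4% of all arm peaks passed. In Simba2 batch 2 it was 47.4%, with 57.1% of gene peaks and 57.3% of all. In Simba1 batch 1 it was 55.8%, with 59.9% of gene peaks and 60.5% of all, and in Simba1 batch 2 it was 43.2%, with 41.2% of gene peaks and 42% of all. The desert share was lower in 3 libraries and higher in Simba1 batch 2 (mean difference desert minus gene -4.41 ± 4.87 points, SD, n = 4; exact two-sided sign permutation p = 0.25). Without Simba1 batch 2 the mean difference was -6.54 points. It was -1.47 points without the pericentromeric ends and -2.02 points among peaks with more than 3 reads at the summit.

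At the stricter limit of q of 0.001 or lower, 16.7% of desert peaks passed in Simba2 batch 1, with 20.5% of gene peaks and 21.5% of all arm peaks. In Simba2 batch 2 it was 17.7%, with 23.8% of gene peaks and 24.5% of all, and in Simba1 batch 1 it was 19.4%, with 22.9% of gene peaks and 23.6% of all. Simba1 batch 2 again differed, with 9.25% of desert peaks, 8.89% of gene peaks and 9.18% of all. That library thus had both the largest share of its peaks in deserts and the smallest share of strongly scored peaks of the 4 libraries, in deserts and gene spans alike.

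A few desert peaks were very long and almost empty of reads. Of 16 arm peaks of 3 kb or more, 7 lay in deserts, 1 in Simba2 batch 1 and 6 in Simba2 batch 2. None of the 16, in deserts or elsewhere, was in a Simba1 list. The longest of all, 31.4 kb in Simba2 batch 1, lay between tyn and CG3038 near the start of X (X:207278-238667), with 1 read at its summit, a background of 0.0822 and a fold enrichment of 1.67. The desert between the start of 3R and Myo81F, which encodes a myosin, held 5 of the others, all in Simba2 batch 2 with 1 read at the summit, of 3.10 to 12.6 kb. The remaining one, of 7.80 kb, lay between CR41597 and scro, an NK-2 class homeobox gene, on 3L with 3 reads. At the summits of these 7 peaks the pileup was at most 3 and the background at most 0.268 scaled reads, so their length does not go with deep coverage. Thin long peaks were not particular to deserts. In Simba2 batch 1, peaks of 8.358 and 6.155 kb inside gene spans also had 1 read at the summit, while another of 4.635 kb had 25.

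Of the 992 deserts, 795 held at least 1 peak of some library, 405 had peaks from all 4 lists, and 197 had none. The empty deserts were short, with a median of 1.03 kb and a longest of 17.6 kb, against a median of 9.94 kb for those with peaks. Part of this is set by the rule: a desert peak must lie wholly inside its desert. Deserts ran down to 0.01 kb, and one shorter than a peak must be empty. The number of peaks in a desert followed its length: Spearman's rho over the 992 deserts was 0.802 in Simba2 batch 1, 0.829 in Simba2 batch 2, 0.757 in Simba1 batch 1 and 0.809 in Simba1 batch 2. This is a description across deserts, which share their libraries, and the same rule enters it. Among the 65 deserts of 50 kb or more the density ran from 62.2 to 299 peaks per Mb in Simba2 batch 1, from 55.0 to 456 in Simba2 batch 2, from 16.9 to 214 in Simba1 batch 1 and from 52.9 to 306 in Simba1 batch 2, and none of the 65 was without peaks in any library.

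The 6 deserts with the most peaks over the 4 lists lay at or near the centromeric ends of the arms, 1 of them beside ribosomal RNA genes of X. The largest, on 3L between CG42598 and CG40228 (3L:26376357-27077090, 701 kb), had 82 peaks in Simba2 batch 1, 165 in Simba2 batch 2, 68 in Simba1 batch 1 and 104 in Simba1 batch 2. The desert from the start of 3R to Myo81F (562 kb) had 41, 146, 35 and 84 in the same order. The batch 2 lists held more peaks than the batch 1 list of the same protein in both deserts.

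On 3L, the desert between Dbp80, a DEAD-box RNA helicase gene, and lncRNA:CR46482 (3L:27427160-27816332, 389 kb) had 56, 99, 55 and 80 peaks in Simba2 batch 1, Simba2 batch 2, Simba1 batch 1 and Simba1 batch 2. On X, the desert between lncRNA:flam, the flamenco precursor of piRNAs that silence transposons in the ovary, and CG40813 (X:21795732-22138057, 342 kb) had 57, 87, 36 and 75. On 2R, the desert from the start of the arm to DIP-lambda, an immunoglobulin-domain gene of the DIP family (322 kb), had 53, 84, 26 and 59. The last of the 6, on X between the ribosomal RNA gene 2SrRNA:CR45864 and mir-10404-5 (X:23296730-23533214, 236 kb), had 46, 69, 33 and 65. In all 6, Simba2 batch 2, which has the longest list, had the most peaks, and Simba1 batch 1, which has the shortest, had the fewest.

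Sharing between lists was measured as the share of a library's peaks that share at least 1 bp with a peak of another list. Over whole arms, desert peaks overlapped the Simba1 batch 2 list more often than gene peaks did in all 3 comparisons and overlapped another list less often in all 9, but this did not hold throughout each zone. With another list as the one that was met, the desert share was lower in 7 of the 9 comparisons in the pericentromeric ends and in 6 of the 9 in the rest of the arms. With Simba1 batch 2 as the one that was met, it was higher in 2 of 3 in the pericentromeric ends and in 3 of 3 in the rest of the arms. Of Simba2 batch 1 desert peaks, 31.1% overlapped a Simba1 batch 2 peak, against 24.9% of gene peaks and 25.8% of all arm peaks. Of Simba2 batch 2 desert peaks it was 31.6%, against 24.6% of gene peaks and 26.2% of all, and of Simba1 batch 1 desert peaks it was 30.8%, against 26.4% of gene peaks and 26.9% of all.

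Between batches of the same protein the other values over whole arms were lower in deserts. Of Simba2 batch 1 desert peaks, 47.1% overlapped Simba2 batch 2, against 51.4% of gene peaks and 51.9% of all. In the other direction it was 30.8% of Simba2 batch 2 desert peaks, against 32.6% of gene peaks and 33.7% of all. In the rest of the arms this last comparison turned, with 37.7% of desert peaks and 33.2% of gene peaks. Of Simba1 batch 2 desert peaks, 19.5% overlapped Simba1 batch 1, against 22.3% of gene peaks and 22.7% of all. Over the 4 comparisons of the same protein in the other batch, the desert minus gene difference averaged -1.12 ± 3.83 points (SD, n = 4 comparisons). No common direction was detectable (exact two-sided sign permutation p = 0.625). Each pair of libraries enters these 4 comparisons in both directions, so the values are not independent. The SD and the p treat them as if they were.

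Between proteins within a batch, where both lists share a Dam control, 45.9% of Simba2 batch 1 desert peaks overlapped Simba1 batch 1, against 49.6% of gene peaks and 50.9% of all. Of Simba1 batch 1 desert peaks, 60.4% overlapped Simba2 batch 1, against 65.8% of gene peaks and 65.6% of all. Of Simba1 batch 2 desert peaks, 40.3% overlapped Simba2 batch 2, against 44.0% of gene peaks and 44% of all, but in the pericentromeric ends 41.5% of desert peaks and 39.1% of gene peaks did. Over the 4 within-batch comparisons the difference averaged -1.46 ± 5.70 points (SD, n = 4 comparisons, exact two-sided sign permutation p = 0.625). Here too each pair of libraries enters in both directions, so the 4 values are not independent. In 3 of the 4 libraries, desert peaks thus met their batch's other protein at least as often as their protein's other batch. Simba2 batch 1 was the exception. Gene peaks did so in both Simba1 libraries but in neither Simba2 library (49.6 against 51.4% in batch 1, 24.6 against 32.6% in batch 2). The lists met differ in length, however. With lists of equal length these 2 shares of desert peaks were 51.5 and 29.8% in Simba2 batch 1, and 34.5 and 35.4% in Simba2 batch 2. They were 50.2 and 26.7% in Simba1 batch 1, and 21.4 and 19.9% in Simba1 batch 2. The exception was then Simba2 batch 2, so it changed with list length. For gene peaks at equal length they were 54.1 and 35.4%, 25.6 and 34.1%, 55.9 and 22.2%, and 27.8 and 22.3% in the same order. The exception was the same, so this pattern is not particular to deserts.

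Between proteins of different batches, 24.1% of Simba2 batch 2 desert peaks overlapped Simba1 batch 1, against 26.1% of gene peaks and 27.7% of all, but in the rest of the arms 30.2% of desert peaks and 26.5% of gene peaks did. Of Simba1 batch 1 desert peaks, 48.6% overlapped Simba2 batch 2, against 54.1% of gene peaks and 54.5% of all. Of Simba1 batch 2 desert peaks, 25.8% overlapped Simba2 batch 1, against 27.8% of gene peaks and 28% of all, and in the rest of the arms 29.8% of desert peaks and 28.5% of gene peaks. With the Simba2 batch 1 value at Simba1 batch 2 included, the mean difference was -0.824 ± 4.95 points (SD, n = 4 comparisons, exact two-sided sign permutation p = 0.75). Again each pair of libraries enters in both directions, so these 4 values are not independent.

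**Figure D4:**
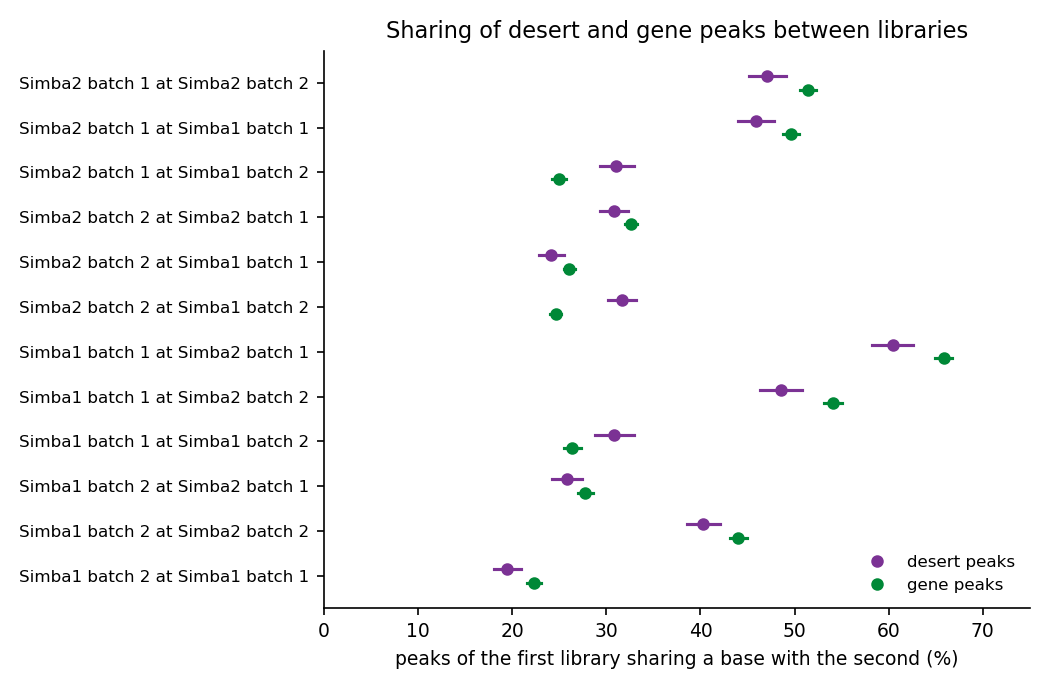
Share of the peaks of the first-named library that share a base with a peak of the second (x axis, percent) for desert peaks (purple) and gene peaks (green), with 95% exact binomial intervals that cover counting error only. The purple point lies right of the green one in the 3 rows whose second library is Simba1 batch 2 and left of it in the other 9.

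The plot of sharing shows the 3 exceptions, which have Simba1 batch 2 as the list that was met. The peaks of that list covered 7.90% of desert bases and 5.65% of gene span bases. The other lists covered deserts and gene spans alike, with 7.02% of desert and 6.91% of gene bases in Simba2 batch 1, 11% of both in Simba2 batch 2, and 5.25% and 5.26% in Simba1 batch 1. The 3 higher shares therefore go with the desert coverage of the list that was met, and the part of that coverage in them was not tested.

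Desert and gene peaks were then compared as regions, made by merging peaks of any list that share at least 1 bp. The deserts held 7099 merged regions, of which 4305 (60.6%) came from 1 list, 1739 (24.5%) from 2, 743 from 3 and 312 (4.39%, 95% exact Clopper-Pearson interval 3.93 to 4.90%) from all 4. Of 34322 regions inside gene spans, 1387 (4.04%, 3.84 to 4.25%) were in all 4 lists, and of all arm regions 4.49%. The desert share is near that background and its interval overlaps that of gene regions. In the deserts of the rest of the arms 177 of 3498 regions (5.06%, 4.36 to 5.84%) were in all 4 lists, against 135 of 3601 (3.75%, 3.15 to 4.42%) in pericentromeric deserts. Outside the pericentromeric ends 4.11% (3.89 to 4.34%) of gene regions were in all 4 lists, just below the interval of the deserts there. Of all arm regions outside those ends 4.62% (4.43 to 4.81%) were in all 4 lists, which lies inside the desert interval, so the desert share there is near its background. These intervals cover counting error only and treat neighbouring regions as independent.

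Of the desert regions present in exactly 2 lists, more joined the lists of a batch than the lists of a protein. In deserts, 641 regions (9.03%) were in both batch 2 lists alone and 351 (4.94%) in both batch 1 lists alone. Both Simba2 lists alone shared 310 desert regions (4.37%) and both Simba1 lists alone shared 89 (1.25%). Among gene regions the same patterns made up 7.03, 5.87, 5.42 and 1.03%, in the same order, so this order is not particular to deserts. The batch 2 lists held the most desert peaks, and list length was not equalised here. Regions in more than 2 lists are left out of these pairs. The crossed pairs share neither protein nor control. Simba2 batch 1 with Simba1 batch 2 had 177 desert regions (2.49%, against 1.74% of gene regions). Simba2 batch 2 with Simba1 batch 1 had 171 (2.41%, against 2.60% of gene regions). Both were above the pair of Simba1 lists, in deserts as in gene spans. Regions of Simba1 batch 2 alone made up 20.4% of desert regions (1447) and 15.3% of gene regions.

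The 312 desert regions in all 4 lists lay in 188 deserts, had a median length of 772.5 bp (771 bp for gene regions) and a median distance of 13.2 kb from the nearest gene, with a maximum of 383 kb for a region in the desert before Myo81F. At 267 of them the best peaks of the 4 lists shared bases. This was not counted for gene regions, so it cannot be set against a background. At 70 (22.4%, 17.9 to 27.5%) the peak of each list had q of 0.05 or lower, against 341 of 1387 gene regions (24.6%, 22.3 to 26.9%) and 26.4% of all arm regions in the 4 lists, so this share too is near the background. The median fold enrichment of their best peaks was 3.22 in Simba2 batch 1, 3.08 in Simba2 batch 2, 3.25 in Simba1 batch 1 and 2.83 in Simba1 batch 2.

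The genes nearest to the 312 regions numbered 216. Long noncoding RNA genes were nearest for 77 regions (24.7%) and protein-coding genes for 209 (67%). Among all genes of the arms 11.1% were lncRNA genes, but among the genes at the ends of deserts 27.2% were (537 of 1975), close to the share for the regions. Genes that were neither coding, lncRNA, antisense, tRNA nor pseudogene were nearest for 16 regions (5.13%), against 0.81% of the genes at the ends of deserts. For single desert peaks such a gene was nearest in 2.54% (Simba2 batch 1), 2.76% (Simba2 batch 2), 2.43% (Simba1 batch 1) and 2.86% (Simba1 batch 2). Of these 16 regions, 15 lay in the desert between 2SrRNA:CR45864 and mir-10404-5 on X, with the rRNA gene nearest for 11 and the miRNA gene for 4. For single desert peaks the nearest gene was an lncRNA gene in 22.4% (Simba2 batch 1), 19.5% (Simba2 batch 2), 22.1% (Simba1 batch 1) and 21.2% (Simba1 batch 2). Nearness does not say that a region acts on a gene.

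The 12 regions with the highest mean percentile of q within their lists follow. In each of them every list had q of 0.00985 or lower, and all but 1 lay outside the pericentromeric ends. The first lay on 3L between CG5290, at 6.89 kb, and lncRNA:CR43174, at 13.9 kb (3L:17919454-17920142). Its best peaks had fold enrichments of 5.12 in Simba2 batch 1, 9.17 in Simba2 batch 2, 6.90 in Simba1 batch 1 and 6.01 in Simba1 batch 2, from 24, 45, 46 and 40 reads at the summit. It was the region with the highest fold enrichment in both batch 2 libraries and in Simba1 batch 1 among the 12.

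A desert of 110 kb near the start of X, between SteXh:CG42398, a gene of the Stellate group whose products resemble a regulatory subunit of casein kinase 2, and lncRNA:CR40469, held 2 of the 12 and 8 of the 312. The first, at X:66685-68202, had fold enrichments of 6.02, 3.69, 6.76 and 3.35 in Simba2 batch 1, Simba2 batch 2, Simba1 batch 1 and Simba1 batch 2. The other, at X:58590-59581, had 5.71, 3.51, 4.68 and 3.95. Both were higher in each batch 1 library than in either batch 2 library.

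**Figure D5:**
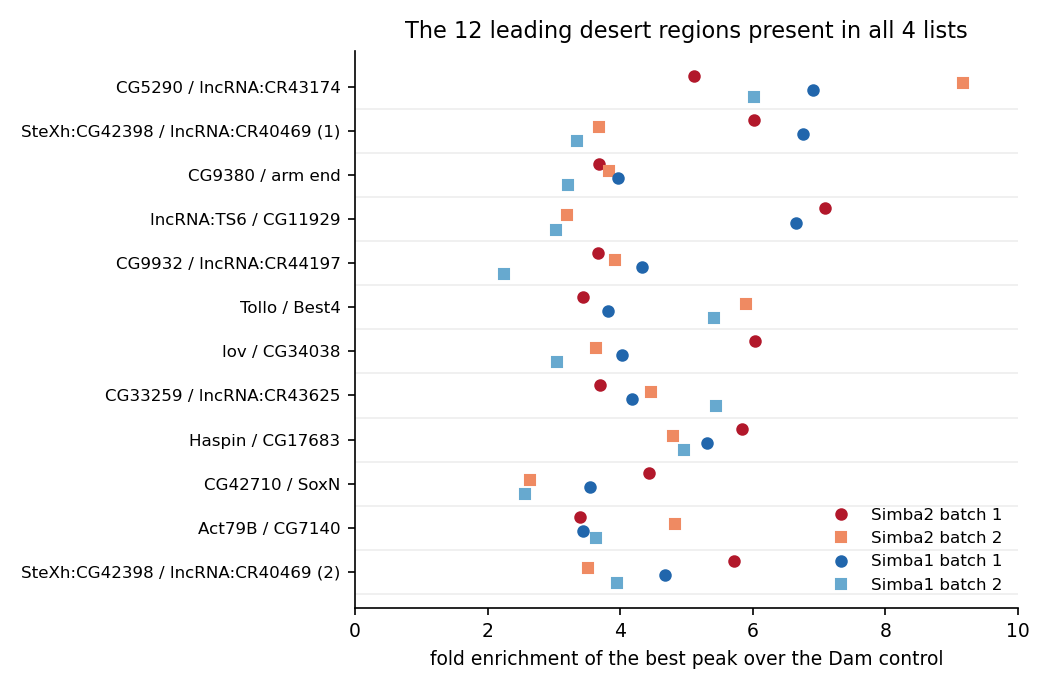
Fold enrichment over the Dam control (x axis) of the best peak of each list in the 12 leading desert regions present in all 4 lists, each named by its flanking genes (y axis, in order of mean percentile). Red circles are Simba2 batch 1, orange squares Simba2 batch 2, dark blue circles Simba1 batch 1 and light blue squares Simba1 batch 2; in 9 rows both circles (batch 1) lie on the same side of both squares (batch 2).

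On 2L, a region between lncRNA:TS6 and CG11929 (2L:4667371-4668582) had 7.10, 3.19, 6.65 and 3.03 in Simba2 batch 1, Simba2 batch 2, Simba1 batch 1 and Simba1 batch 2. Its Dam background was 2.00, 5.89, 2.00 and 5.99 scaled reads in this order, with 25, 21, 26 and 23 reads at the summit. A region between CG9932 and lncRNA:CR44197 (2L:13077759-13078529) had 3.67, 3.92, 4.33 and 2.25 and the deepest coverage of the 12, up to 49 reads in Simba1 batch 1. The third 2L region lay between CG42710, at 18.1 kb, and SoxN, at 24.5 kb (2L:8800584-8801194), with 4.43, 2.64, 3.55 and 2.56. SoxN encodes a Sox transcription factor of the neuroectoderm and early neural progenitors.

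Other regions in all 4 lists flanked SoxN on its far side, between SoxN and lncRNA:CR45365. The one at 2L:8834730-8835243, 5.06 kb from SoxN, had fold enrichments of 1.99, 3.14, 3.00 and 2.29 and q of 0.05 or lower in each list. The one at 2L:8845123-8846179 had 2.96, 2.59, 3.49 and 1.72, and there the 4 best peaks had no base in common. SoxN thus had such regions in the deserts on both of its sides.

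On 3L, the region between Tollo, which encodes the Toll-family receptor Toll-8, and Best4, a bestrophin gene (3L:15280405-15280844), had 3.45, 5.90, 3.81 and 5.42 in Simba2 batch 1, Simba2 batch 2, Simba1 batch 1 and Simba1 batch 2. A region between CG33259 and lncRNA:CR43625 (3L:15424321-15425406) had 3.70, 4.46, 4.17 and 5.44. In both, each batch 2 library was above each batch 1 library. The region between Act79B, an actin gene, and CG7140 (3L:22005878-22006545) had 3.39, 4.82, 3.45 and 3.64.

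On 2R, the region between CG9380 and the end of the arm (2R:25283053-25283748) had 3.68, 3.83, 3.97 and 3.21 in Simba2 batch 1, Simba2 batch 2, Simba1 batch 1 and Simba1 batch 2, with the 4 libraries close together. The region between Haspin, a histone H3 kinase gene, and CG17683 (2R:4083497-4084169), the only pericentromeric one, had 5.84, 4.80, 5.31 and 4.97 but rested on 16, 13, 16 and 11 reads. The region between lov, a BTB-domain gene, and CG34038 (2R:25160961-25161394) had 6.03, 3.64, 4.03 and 3.05.

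As the plot of the leading regions shows, fold enrichment ordered the libraries by batch at most of these 12. Over them, fold enrichment ran from 3.39 to 7.10 in Simba2 batch 1, from 2.64 to 9.17 in Simba2 batch 2, from 3.45 to 6.90 in Simba1 batch 1 and from 2.25 to 6.01 in Simba1 batch 2. In 9 of the 12 the values of the batches did not overlap, with batch 1 above batch 2 in 6 and batch 2 above batch 1 in 3. In none of the 12 did the values of Simba2 and Simba1 separate, but 9 of the 12 could not have shown this. Where the values of the batches do not overlap, those of the proteins must, here and over the regions below. Over all 312 desert regions in the 4 lists the batches did not overlap at 148 (47.4%), against 45.6% of all arm regions in the 4 lists. The proteins did not overlap at 80 desert regions (25.6%), 44 with Simba2 above Simba1 and 36 with Simba1 above Simba2, against 27.3% of all arm regions. Both shares are near the background. The libraries of a batch share their Dam control, so the batch and the control cannot be told apart.

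A few of the other regions with q of 0.05 or lower in each list are given as examples, chosen after their values were seen and because the function of a flanking gene is known. Su(z)2, a Polycomb group gene, was 7.15 kb from a region at 2R:13015063-13015564 with fold enrichments of 5.24, 3.11, 3.99 and 2.21 in Simba2 batch 1, Simba2 batch 2, Simba1 batch 1 and Simba1 batch 2. The region 7.07 kb from comm2, of the commissureless family that controls axon crossing of the midline (3L:15706920-15707720), had 7.19, 3.78, 5.31 and 2.65. Both were highest in Simba2 batch 1 and lowest in Simba1 batch 2.

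A region 28.9 kb from its nearest gene, lncRNA:CR45115, and 40.9 kb from vvl, a POU-domain transcription factor gene (3L:6835860-6836567), had fold enrichments of 2.87, 4.69, 2.84 and 3.94. The desert between vvl and lncRNA:CR45115 held further regions in all 4 lists at 3L:6829588-6830803 and 3L:6802072-6802833. A region 7.02 kb from ct, the homeobox gene cut (X:7600984-7601405), had 4.34, 2.92, 3.10 and 2.71. A region 31.1 kb from lncRNA:CR46353 and 41.3 kb from rpr, the cell death gene reaper (3L:18355122-18356252), had 3.24, 3.09, 3.13 and 2.74, with the 4 libraries close together. No test of gene function was made.

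The most desert regions in all 4 lists, 15, lay in the 236 kb between 2SrRNA:CR45864 and mir-10404-5 on X, which held 121 merged regions. Next came the desert beside Dbp80 with 12 of 171, the desert between CG42598 and CG40228 with 9 of 272, and the desert before Myo81F with 9 of 202. The desert between lncRNA:flam and CG40813 had 3 of 163, although it is longer than the desert with 15. The leading region of the desert with 15, 8.40 kb from mir-10404-5 (X:23529190-23529814), had fold enrichments of 3.04, 5.91, 3.77 and 3.88 in Simba2 batch 1, Simba2 batch 2, Simba1 batch 1 and Simba1 batch 2, on 14, 19, 21 and 14 reads. Sequence beside rDNA and centromeres is repeated elsewhere in the genome, and how the authors placed reads with several matches is not given in the sources used here, so these positions are less certain than those in euchromatin.

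A shorter desert in euchromatin stood out for its number of shared regions. The 39.1 kb between lncRNA:CR46197 and CG6244 on 3L held 17 merged regions, 5 of them in all 4 lists. The leading one, at 3L:15788578-15789290, had fold enrichments of 3.70, 4.25, 4.62 and 3.08 in Simba2 batch 1, Simba2 batch 2, Simba1 batch 1 and Simba1 batch 2. The next, at 3L:15789425-15789888, had 2.60, 4.14, 3.08 and 3.40. This desert was picked out after its values were seen.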

How the data were processed

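DamID peak lists of 4 fusion libraries were used; the Dam controls enter through the lists. The submitters' processing notes name bcl2fastq 2.19.0.316, FastQC, Bowtie2 and the build dm6. How reads were trimmed and aligned is not given in the sources used here. The file headers record MACS 3.0.0 runs by the authors with the Dam library of the same batch as control, no pooling, reads treated as single, duplicate tags removed to 1 at a position, a q limit of 1 and an effective genome size of 2910000000 bp. That size is far above the fly genome and lowers the genome-wide background. The deposited pileup is a coverage signal at the summit; the headers say that the larger library was scaled down. The authors' MACS run also gave the deposited -log10 p-value and q-value and the fold enrichment, a ratio. Peak length in bp is also as deposited.

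Pileup divided by the scaling gave whole reads (tolerance 0.02) at 100% of peaks. The Dam background was recovered as pileup plus 1 over fold, minus 1. Deserts came from 17673 RefSeq gene spans (13911 protein coding) of dm6; arm ends were taken as the last gene or peak. No genome sequence was used, so GATC sites were not analysed here. Pericentromeric ends were set at round positions by arm. Peaks are not replicates: quantities were computed per library and tested over libraries by exact two-sided permutation with Python 3.11.15, numpy 2.4.6, pandas 2.3.3 and scipy 1.17.1, after the code was tested on simulated data. The batch pairs libraries through the Dam control; deviations from the mean of the protein correlated within batches over 992 deserts (Pearson r = 0.189, a description). Regions named in full are the 12 in all 4 lists with the highest mean percentile of q, plus the flanks of the 6 deserts with most peaks; other regions in all 4 lists are named as examples. Members and lists were chosen with earlier results of these data known. Distance limits, q limits, gene sets, overlap rules and leaving out libraries were tried as alternatives.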

Additional observations from a re-analysis of the deposited data

Results flagged for a closer look

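The change of peak density from the edge of deserts to their interior went different ways in the batches. The log2 ratio of peaks per Mb, over 100 kb from genes against 5 to 10 kb from genes, was -0.38 in Simba2 batch 1 and -0.46 in Simba1 batch 1, but 0.26 in Simba2 batch 2 and 0.0047 in Simba1 batch 2. Both libraries of batch 1 moved down and both of batch 2 moved up, the last by very little. The difference between batches was not tested, since each batch has 1 library of each protein and both were called against a single Dam control, so the control and the batch cannot be told apart.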

How the results depend on the processing

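Of 111 values from 17 alternative settings over 10 results, 93 kept their direction and stayed on the same side of the threshold or close to the reported value. The means over libraries, lower for pileup and slightly higher for fold enrichment at desert peaks, kept their direction in these alternatives. In Simba2 batch 2, however, fold enrichment was lower at desert peaks (ratio 0.982 as reported). Among peaks with q of 0.05 or lower its median was higher at desert peaks in all 4 libraries. It was 3.58 against 3.36 in Simba2 batch 1, 3.09 against 2.93 in Simba2 batch 2, 3.64 against 3.41 in Simba1 batch 1 and 3.45 against 3.34 in Simba1 batch 2. The mean log2 ratio of fold was 0.076 there and 0.115 with q of 0.001 or lower, against 0.019 as reported. Within the pericentromeric ends alone the fold ratio averaged 0.990 and the pileup ratio was 1.00 in 3 of 4 libraries. The smallest p under any alternative was 0.13, the least that 4 libraries allow. The difference in desert share, Simba2 minus Simba1 (-1.80 points), ran from -3.88 to 0.272 when a batch was left out and was 0.231 without Dam-Simba1 replicate 2. With the replicate block (batch) it was -1.80 (exact sign permutation p = 1), and the block changed no call. The log2 density ratio turned to -0.087 with q of 0.001 or lower and to -0.080 with gene peaks sharing 1 bp. The length difference became 6.38 bp with q of 0.05 or lower, 14.4 bp with q of 0.001 or lower and 2.5 bp without the pericentromeric ends. Sharing with the other batch became 1.11 points without those ends. Sharing within the batch became 0.123 points with protein-coding genes only and ran from -4.56 to 1.64 points when a batch was left out. The share of regions in all 4 lists, desert minus gene (0.354 points), was -0.051 with gene peaks sharing 1 bp and 0.951 without the pericentromeric ends. The 312 such desert regions became 481 with a 2 kb limit, 194 with 10 kb, 70 with q of 0.05 or lower, 10 with q of 0.001 or lower, 177 without the pericentromeric ends and 161 with lists of equal length. The 2 kb limit lets more sequence in, and the others let fewer bases or peaks in. Causes of the reversals were not tested. Leaving out a batch gives no value for sharing with the other batch or for regions in all 4 lists. Settings with more than 3 reads and without Dam-Simba1 replicate 2 were chosen after seeing the data.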
